A study of Caenorhabditis elegans with 2 samples.

Results

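Divergent promoters are stretches of the genome from which protein-coding genes on opposite strands are read away from each other. They were followed here in a chromatin immunoprecipitation sequencing (ChIP-seq) series on the C. elegans zinc finger protein SEA-2. A candidate peak was a member when at least 2 protein-coding genes on opposite strands had their start near its summit, with the summit at most 1000 bp upstream or 200 bp downstream of each start, and not within 500 bp of a tRNA, snoRNA or snRNA gene. Of the 82563 candidates in the pooled ranked list, 1688 were members. Merging summits within 200 bp left 1668 distinct members among 80879 distinct candidates. Selected members are those that the authors also kept in their optimal list, 43 of the 445 distinct peaks of that list, and the other 1625 members served as background. That list holds peaks at an irreproducible discovery rate (IDR) of 0.01 or less, a measure of whether a peak keeps its rank when ranked lists are compared. Membership of a candidate used position only, not selection or signal. Merging kept selected peaks first and then those of higher signal, so the number of distinct members depends on both. Without merging, 44 of the 1688 members were selected.

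The series held 1 group of 2 biological replicates of whole young adult worms, aged 64 hours and synchronised by starving newly hatched larvae. The strain OP586 carries the transgene wgIs586, a sea-2 fusion to TY1, EGFP and 3xFLAG tags together with a working unc-119 copy, in an unc-119(tm4063) background. The description labels give a GFP antibody, whereas the antibody label reads sea-2. Whole animals were used, so a peak found in a few cells cannot be told apart from weak binding in many, and no control precipitation was analysed here. Signal means the peak caller's value in the authors' lists, on a scale that no label or header explains. The depth behind each value is unknown.

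In compact genomes such as that of C. elegans, neighbouring genes often start close together on opposite strands, and the sequence between them can serve as the promoter of both. The start of such a gene is where RNA polymerase is recruited, often within a stretch of accessible, nucleosome-poor DNA. Many worm genes are in addition trans-spliced to a leader RNA, so that an annotated start can lie downstream of the true start of transcription. SEA-2 is known from the pathway that counts X chromosomes in the embryo and for acting on lin-28, a heterochronic gene that times larval development.

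The sequences below are those of 8 of the 9 selected divergent promoters with the highest signal, 75 bp to each side of the summit, on the plus strand of WBcel235 (the ce11 sequence, RefSeq). They are shown because these peaks carry the strongest signal between opposed genes. The peak between F56G4.6 and wbp-4 is named only. Each name gives the minus-strand gene before the plus-strand gene. Capitals mark matches on either strand to the 5 motifs counted further on. In order, the windows are chrIII:10759186-10759336, chrII:11759397-11759547, chrIV:654852-655002, chrIII:4899808-4899958, chrIII:9053998-9054148, chrIII:13643649-13643799, chrIV:4749996-4750146 and chrII:11545412-11545562.
K01G5.10/tasp-1: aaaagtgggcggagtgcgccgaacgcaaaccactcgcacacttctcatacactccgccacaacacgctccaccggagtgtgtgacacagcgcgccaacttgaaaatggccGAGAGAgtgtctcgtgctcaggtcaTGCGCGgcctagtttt
F44E5.4/F44E5.5: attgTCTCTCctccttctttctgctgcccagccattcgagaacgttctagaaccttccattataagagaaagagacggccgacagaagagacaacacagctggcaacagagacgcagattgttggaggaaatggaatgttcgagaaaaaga
rpl-15/K11H12.8: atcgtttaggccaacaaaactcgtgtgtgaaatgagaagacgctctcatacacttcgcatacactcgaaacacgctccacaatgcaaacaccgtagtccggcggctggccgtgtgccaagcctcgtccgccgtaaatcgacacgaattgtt
nhl-2/tag-340: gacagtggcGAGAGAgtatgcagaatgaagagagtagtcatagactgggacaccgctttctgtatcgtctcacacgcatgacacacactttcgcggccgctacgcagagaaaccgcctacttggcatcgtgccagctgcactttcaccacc
R107.5/cls-2: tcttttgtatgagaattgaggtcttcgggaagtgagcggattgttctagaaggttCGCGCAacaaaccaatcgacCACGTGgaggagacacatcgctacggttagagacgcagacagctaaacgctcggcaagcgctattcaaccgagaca
drr-2/set-16: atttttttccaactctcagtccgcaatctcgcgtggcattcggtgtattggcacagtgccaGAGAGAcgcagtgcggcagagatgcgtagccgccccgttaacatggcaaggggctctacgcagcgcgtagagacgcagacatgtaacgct
rpl-20/Y17G9B.5: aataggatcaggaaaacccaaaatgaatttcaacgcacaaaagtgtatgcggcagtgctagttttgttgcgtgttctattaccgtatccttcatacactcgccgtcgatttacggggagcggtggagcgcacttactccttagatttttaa
F54D5.9/dnj-13: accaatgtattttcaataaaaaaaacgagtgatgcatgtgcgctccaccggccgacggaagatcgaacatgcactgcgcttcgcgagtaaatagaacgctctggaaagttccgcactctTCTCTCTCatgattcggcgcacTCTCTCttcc

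Their GC content ran from 43.7% between rpl-20 and Y17G9B.5 to 57.6% between K01G5.10 and tasp-1. GAGAGA was held by 5 of the 8 windows, CGCGCA by 2, and CACGTG by 1, between R107.5 and cls-2. The windows at rpl-15 and rpl-20 held none of the 5 motifs.

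Candidates at divergent promoters were selected more often than candidates at promoters whose genes lie on one strand only. In the optimal list 43 of 1668 divergent candidates were selected (2.58%, exact Clopper-Pearson 95% interval 1.87 to 3.46%), against 0.55% of all distinct candidates. At promoters on one strand 104 of 14963 were selected (0.695%, interval 0.568 to 0.842%). Candidates near a tRNA, snoRNA or snRNA gene, which belong to neither class, had a higher share of 7.78% (95 of 1221), and 4.05% and 3.18% in the lists of replicate 1 and replicate 2. The odds ratio of divergent against one-strand promoters was 3.78 (95% interval 2.58 to 5.46). Fisher's exact test, two-sided, gave p = 5.5e-11, or 1.1e-10 adjusted over the 2 main tests. Candidates are not biological replicates, so this p-value compares sets of regions from the same animals, and the intervals cover counting error only.

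Each replicate's own list gave the same order. In replicate 1, 18 of 1064 divergent candidates were selected (1.69%, 95% interval 1.01 to 2.66%), against 0.324% of all its candidates and 0.427% at promoters on one strand. In replicate 2, 13 of 1110 were selected (1.17%, 0.625 to 1.99%), against 0.236% of all its candidates and 0.259% at promoters on one strand. The odds ratios against promoters on one strand were 4.02 in replicate 1 (Fisher's exact test, p = 1.0e-05) and 4.56 in replicate 2 (p = 6.8e-05), both two-sided and unadjusted.

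**Figure D1:**
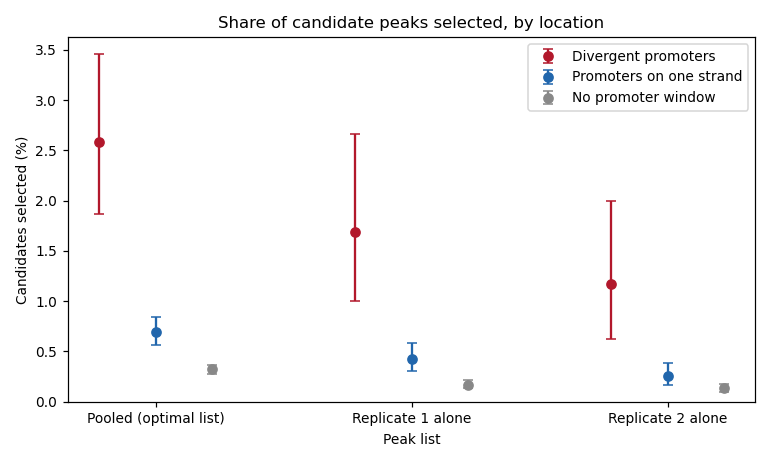
Share of distinct candidate peaks that were selected (%, y axis) in the pooled optimal list and in each replicate's own thresholded list (x axis), for divergent promoters, promoters on one strand and summits in no promoter window. Points are shares and bars exact 95% Clopper-Pearson intervals. Of the 3 classes drawn, divergent promoters are highest in all 3 lists, at 2.58%, 1.69% and 1.17%. Candidates near a small RNA gene are not drawn.

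Distance to a start differed between the classes. The nearest start was a median of 152 bp away for unselected divergent candidates and 395 bp away for unselected candidates at promoters on one strand. In strata chosen after seeing the data, the selected share was again higher at divergent promoters. Among summits within 300 bp of a start, 35 of 1243 divergent candidates (2.82%) and 48 of 6381 on one strand (0.752%) were selected, an odds ratio of 3.82 (95% interval 2.39 to 6.06). Among windows of at least 45% GC the shares were 7.72% and 2.17%, an odds ratio of 3.76 (2.27 to 6.09). Among windows with under 10% of 31-mers repeated elsewhere in the nuclear genome the shares were 2.42% and 0.641%, an odds ratio of 3.85 (2.52 to 5.77).

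Counted by gene pair, the annotation held 2560 neighbouring starts on opposite strands, head to head and within 2000 bp. A candidate lay in the shared window of 1182 of these pairs (46.2%). A selected peak lay in that of 42 pairs (1.64%, 95% interval 1.18 to 2.21%). The 43 selected peaks touched the windows of 85 genes, since the pair of supr-1 and dnj-28 held 2 summits and 1 window held 3 genes.

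Signal at the 43 selected peaks had a median of 102 and ran from 8.44 to 395. The 1625 unselected divergent candidates had a median of 25.8 and a highest value of 93.8. The 104 selected peaks at promoters on one strand had a median of 91.2 and ran from 3.38 to 311. Of the 43, 22 had a signal above 100 and no unselected divergent candidate did. Selection was made on these same peaks, so the gap between selected and unselected members is a description. A q value of 0.05 or less was deposited for 23 of the 43 and a larger one for 20. The q value did not always follow signal. Its -log10 was 1.01 at drr-2 with set-16 (signal 182) and 1.45, a smaller q, at apb-1 with mdt-19 (87.0). Unselected candidates could pass 0.05 too, as at rsp-2 with rsp-1 (-log10 q of 1.43), and their share was not counted.

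Every selected peak overlapped a ranked candidate in both replicates. In replicate 1 those candidates had a median signal of 56.1, against 20.3 for the 899 unselected divergent candidates that overlapped one and 19.0 over its whole list. In replicate 2 the medians were 47.5, 17.6 (935 candidates) and 16.3. Replicate 1 signal ran from 22.6 to 239 and replicate 2 signal from 20.2 to 153, and in both replicates all 43 lay above the median of that replicate's list. The replicates' reads are part of the pooled reads, so this is no independent selection.

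Thresholded peaks of both replicates were overlapped by 11 of the 43 (25.6%, 95% interval 13.5 to 41.2%), those of replicate 1 only by 8, of replicate 2 only by 2 and of neither by 22. At promoters on one strand 14 of 104 selected peaks overlapped those of both (13.5%, 7.56 to 21.6%). The odds ratio was 2.20 (0.813 to 5.84), a difference that did not pass Fisher's exact test (two-sided, p = 0.0923, the same after adjustment). The 11 peaks were among the 12 strongest of the 43, and had a median signal of 182 against 84.7 for the 22 backed by neither replicate.

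**Figure D2:**
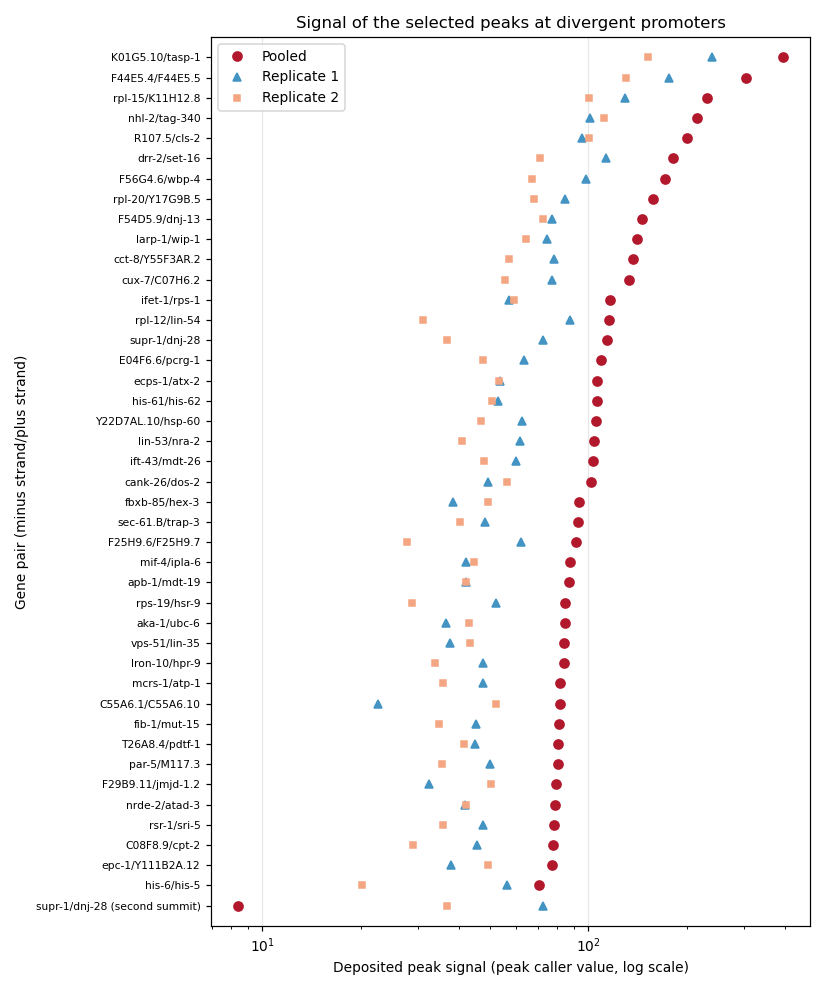
Deposited signal (peak caller value, log axis) of the 43 selected peaks at divergent promoters, 1 row per peak in falling order of pooled signal, with the pooled value and the strongest overlapping candidate of each replicate. Replicate values start at 239 and 153 at tasp-1 and tend to fall with the pooled value, though not from each row to the next. The second summit at dnj-28 has a pooled signal of 8.44, while its replicate symbols are those of the neighbouring summit.

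The strongest peak, between K01G5.10 (WBGene00010481) and tasp-1 (WBGene00010480), the gene of a threonine aspartase, was also the strongest of all 445. It had a signal of 395 in the pooled list, 239 in replicate 1 and 153 in replicate 2, and its summit lay 46 bp upstream of tasp-1 and 739 bp upstream of K01G5.10. The next peak lay between F44E5.4 (WBGene00009691) and F44E5.5 (WBGene00009692), which both belong to the Hsp70 chaperone family, 161 bp upstream of the first and 190 bp upstream of the second. Its signal was 305 pooled, 176 in replicate 1 and 131 in replicate 2. The window between these 2 related genes held no 31-mer that recurs in the nuclear genome.

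Genes of cytosolic ribosomal proteins lay at 5 of the selected peaks. The peak between rpl-15 and K11H12.8 had a pooled signal of 231, with 130 in replicate 1 and 100.4 in replicate 2. The peak between rpl-20 and Y17G9B.5 had 157, with 84.5 and 68.0. Both peaks were thresholded in each replicate. The summit of the second lay nearer to Y17G9B.5 (169 bp) than to rpl-20 (293 bp). The peak between ifet-1, a translational repressor, and rps-1 had 116, with 57.0 and 59.1, and only replicate 2 thresholded it.

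Like those at rpl-15 and rpl-20, the other 2 peaks at ribosomal protein genes had a higher signal in replicate 1 than in replicate 2. This is not particular to them. Medians over all 43 selected peaks were 56.1 in replicate 1 and 47.5 in replicate 2, and over the whole lists 19.0 and 16.3. The peak between rpl-12 and lin-54 had a pooled signal of 115.5, with 87.7 in replicate 1 and 31.2 in replicate 2. Its summit lay 24 bp inside rpl-12, in the 5′ UTR. The peak between rps-19 and hsr-9, a gene of the DNA damage response, had 85.0, with 52.2 and 28.8, and was thresholded in neither. Its summit lay nearer to hsr-9 (158 bp) than to rps-19 (287 bp). In all, 31 of 81 ribosomal protein genes had a divergent candidate. Of those 44 candidates 5 were selected (11.4%, 95% interval 3.79 to 24.6%), against 2.58% of all divergent candidates.

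Chaperone genes held 5 selected peaks on the list of heat shock, DnaJ and chaperonin genes, which lacks F44E5.4 and F44E5.5. These 5 came from 22 candidates (22.7%, 95% interval 7.82 to 45.4%), against 2.58% of all divergent candidates. They lay at 4 genes, since 2 are summits of the supr-1 and dnj-28 pair that share their replicate candidates. The peak at dnj-13, a DnaJ co-chaperone gene opposite F54D5.9, had a pooled signal of 146, with 77.3 in replicate 1 and 72.4 in replicate 2. Its summit also lay in an intron of dhgd-1. The peak between cct-8, a subunit of the cytosolic chaperonin, and Y55F3AR.2 had 137, with 78.4 and 56.9. Its summit lay nearer to Y55F3AR.2 (188 bp) than to cct-8 (433 bp). The peak at hsp-60, the mitochondrial chaperonin gene, had 106, with 62.7 and 46.7, and its summit lay nearer to Y22D7AL.10 (212 bp) than to hsp-60 (601 bp). Between supr-1 and dnj-28 the main summit had 114, with 72.8 and 36.8. Of the 31-mers in the window around that summit, 38.0% recur in the nuclear genome. The second summit, 80 bp inside dnj-28 in coding sequence, had a pooled signal of 8.44 and overlapped the same replicate candidates. It met the authors' threshold despite that signal, which ranked 73354 among the distinct candidates.

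The next pairs belong together by no list. The peak between nhl-2, a cofactor of microRNA silencing, and tag-340 had a pooled signal of 215, with 101 in replicate 1 and 112 in replicate 2. The peak between drr-2, a gene of translation initiation, and set-16, a histone methyltransferase gene, had 182, with 113 and 71.3. The peak between larp-1, which encodes a La-related RNA-binding protein, and wip-1 had 141, with 74.5 and 64.5. All 3 were thresholded in both replicates. A peak of 106 lay 44 bp upstream of atx-2, the ataxin-2 gene, opposite ecps-1, with 53.6 and 53.04 in the replicates, and neither replicate thresholded it.

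The remaining peaks among the 20 strongest had varied neighbours. The peak between R107.5 and cls-2, a microtubule-binding CLASP gene, had 201, with 95.4 in replicate 1 and 101 in replicate 2. That between F56G4.6 and wbp-4 had 172, with 98.6 and 67.1. That between cux-7 and C07H6.2, whose window also held the start of the DNA ligase gene lig-4, had 133, with 77.1 and 55.6. All 3 were thresholded in both replicates. The peak between E04F6.6 and pcrg-1 had 109, with 63.3 and 47.5, and was thresholded in replicate 1 only. The peak between lin-53, a histone-binding protein gene, and nra-2 had 104, with 61.7 and 41.0, and was thresholded in neither.

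Histone genes, which lie in divergent pairs in the worm genome, held 2 selected peaks among 20 candidates (10%, 95% interval 1.23 to 31.7%), against 2.58% of all divergent candidates. The peak between his-61 and his-62 had a pooled signal of 106, with 52.7 in replicate 1 and 50.6 in replicate 2. The peak between his-6 and his-5 had 70.3, with 56.1 and 20.2. Both summits lay in coding sequence, 140 bp inside his-61 and 31 bp inside his-6. Of their 31-mers 49.1% and 38.0% recur in the nuclear genome. How the authors assigned reads that match several places was not analysed here. The peak between mcrs-1 and atp-1, an ATP synthase subunit gene, had 82.0, with 47.6 and 35.9, and was the only selected peak on the list of vacuolar ATPase and respiration genes, from 13 candidates.

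The other selected peaks had pooled signals from 77.4 to 104. They included pairs with the Mediator genes mdt-26 (104, opposite ift-43) and mdt-19 (87.0, opposite the adaptin gene apb-1), and the secretory translocation genes sec-61.B and trap-3, which lie opposite each other (93.0). Nucleolar fibrillarin, fib-1, lay opposite mut-15, a gene of small RNA amplification (81.3). Further pairs were lin-35 with vps-51 (84.4), jmjd-1.2 with F29B9.11 (79.3), nrde-2 with atad-3 (78.8), rsr-1 with sri-5 (78.1) and epc-1 with Y111B2A.12 (77.4). Of these 9, replicate 1 thresholded that at rsr-1 and replicate 2 that at epc-1.

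The last 10 pairs were cank-26 with dos-2 (102), fbxb-85 with hex-3 (93.7), F25H9.6 with F25H9.7 (91.9), mif-4 with ipla-6 (88.0) and aka-1 with ubc-6 (85.0). They also included lron-10 with the DNA damage checkpoint gene hpr-9 (84.0), C55A6.1 with C55A6.10 (81.5), T26A8.4 with pdtf-1 (80.9), par-5 with M117.3 (80.6) and C08F8.9 with cpt-2 (77.9). Replicate 1 thresholded that at F25H9.6 and no other of the 10 was thresholded in either replicate. The signal at C55A6.1 was 22.6 in replicate 1, the lowest of the 43 there, and 52.1 in replicate 2.

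Other gene lists had few or no selected peaks at divergent promoters. The counts were 0 of 28 candidates for mitochondrial ribosomal proteins (95% interval up to 12.3%), 0 of 22 for nuclear hormone receptors, 0 of 20 for the nuclear pore and 0 of 16 for collagens. They were 0 of 15 for splicing and RNA helicases, 0 of 14 for the cell cycle, 0 of 13 for the proteasome, 0 of 11 for DNA replication and repair, 0 of 10 for aminoacyl-tRNA synthetases and 0 of 5 for the ceh homeobox genes. Translation factors had 1 of 12, at ifet-1, and heterochronic genes 1 of 3, at nhl-2. No divergent candidate lay at a gene of sex determination or dosage compensation. At a background share of 2.58%, 0 of 28 candidates cannot show a depletion. Candidates with a gene on any of the 17 lists were selected in 14 of 254 cases (5.51%, 3.05 to 9.08%) and the rest in 29 of 1414 (2.05%, 1.38 to 2.93%).

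The nearest opposed genes of all 43 selected peaks start head to head, as do those of 1615 of the 1625 unselected candidates. The summit lay between the nearest opposed starts in 37 of 43 (86.0%), against 1078 of 1625 (66.3%). It fell in the middle 50% of the gap in 28 of 43 (65.1%), against 665 of 1615 (41.2%), and its median distance from the midpoint was 117.5 bp against 199 bp. The nearer start was a median of 166 bp away and the farther 433 bp. The summit was nearer to the plus-strand gene in 24 peaks and to the minus-strand gene in 19. In 36 peaks it was intergenic, in 4 in coding sequence, in 2 in a 5′ UTR and in 1 in an intron.

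**Figure D3:**
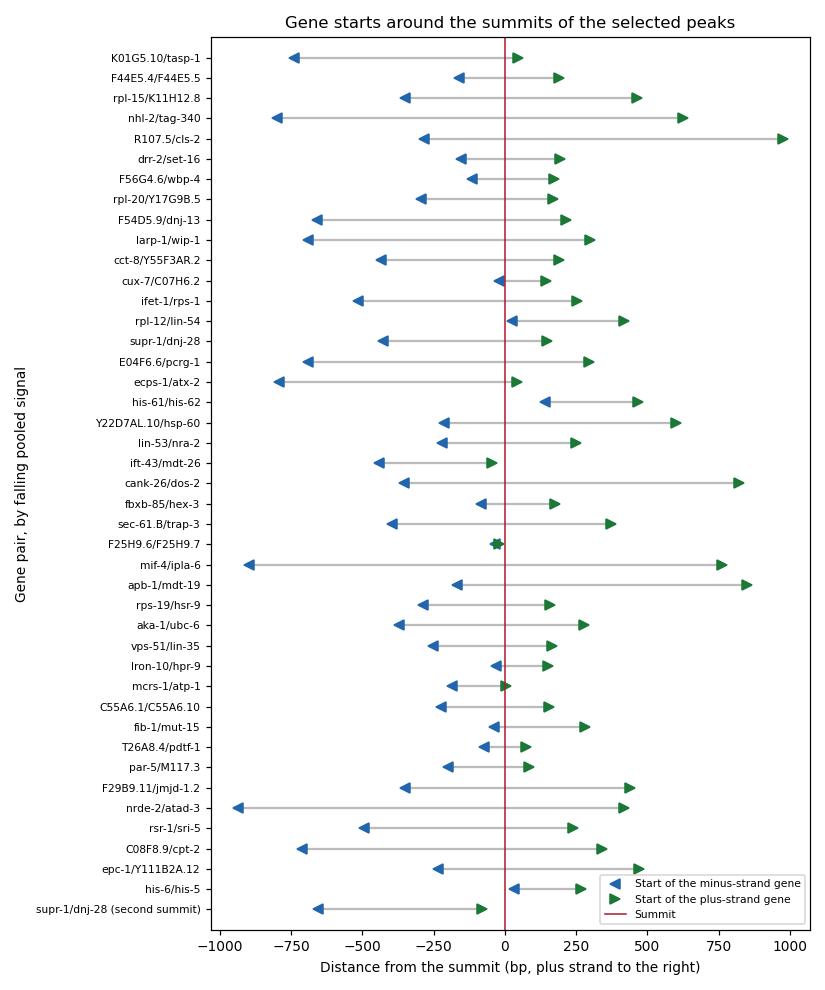
Starts of the nearest minus-strand and plus-strand genes around the summit (x axis, bp from the summit, plus strand to the right) for the 43 selected peaks, 1 row each in falling order of pooled signal. The summit line falls between both starts in 37 rows and outside them in 6.

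Start-to-start distance had a median of 574 bp at selected peaks, with a range of 15 to 1659 bp, and of 658 bp at unselected candidates. The shortest gap was that of F25H9.6 and F25H9.7 and the longest that of mif-4 and ipla-6. The selected share was 3.38% (9 of 266) for gaps under 300 bp and 2.84% (13 of 457) from 300 bp to below 600 bp. It was 2.65% (14 of 528) from 600 bp to below 1000 bp and 1.68% (7 of 417) at 1000 bp and more. The exact 95% intervals of all 4 overlapped, from 1.56 to 6.33% for the shortest and from 0.678 to 3.43% for the longest, so no order of the distance classes could be told at this number of peaks.

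Sequence around selected summits had a higher mean GC content. Within 100 bp of the summit GC content averaged 46.9% ± 5.92 (SD, n = 43) at selected and 39.1% ± 6.76 (SD, n = 1625) at unselected divergent candidates, a difference of 7.74 percentage points. With a single replicate's lists the difference was 7.65 points without replicate 1 and 6.34 points without replicate 2. Selected peaks at promoters on one strand averaged 48.4% ± 7.61 (SD, n = 104). The rise was narrow. In the 50 bp on either side of the summit the means of selected divergent peaks were 52.7% and 51.2%, and at 475 bp they were 38.7% and 39.4%. CG dinucleotides had a median of 15 per window in selected and 8 in unselected divergent candidates. At promoters on one strand the medians were 13 and 7. Between the selected groups GC content was not tested.

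**Figure D4:**
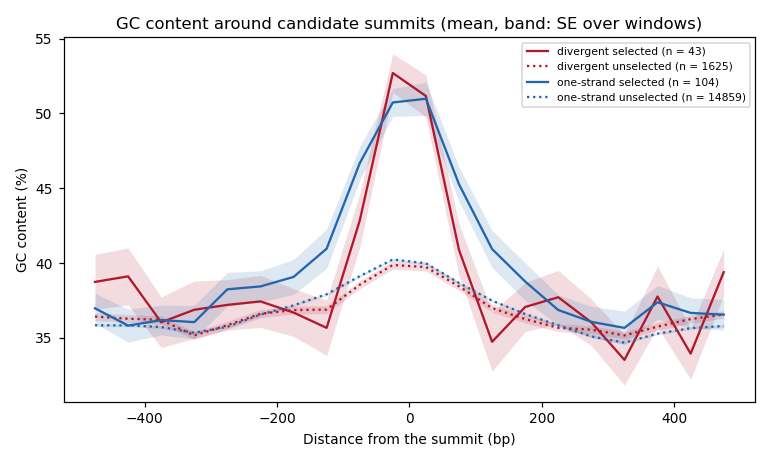
Mean GC content (%, y axis) in bins of 50 bp by distance from the summit (bp, x axis), for selected and unselected candidates at divergent promoters and at promoters on one strand. Bands are the SE over windows. At the summit both selected groups reach more than 50%, while both unselected groups stay near 40%.

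Of the 5 short motifs searched on both strands within 100 bp of the summit, CGCGCA and GAGAGA were taken from earlier results on all peaks of these data. CGCGCA was held by 9 of 43 selected divergent peaks (20.9%, 95% interval 10.04 to 36.04%), against 7.14% of unselected ones. At promoters on one strand it was held by 20.2% of selected and 4.30% of unselected candidates. GAGAGA was held by 11 of 43 (25.6%), against 15.2% of unselected divergent candidates and 36.5% of selected peaks on one strand. TTTCAG, the usual end of a worm splice acceptor, was held by 23.3% against 37.7%, and TATAAA, the core of the TATA box, by 9.30% against 18.2%. CACGTG, an E-box, was held by 9.30% against 4.37%. These contrasts had the same direction at promoters on one strand. Selected and unselected candidates there held TTTCAG in 25% and 33.5%, and TATAAA in 7.69% and 16.8%. For CACGTG their shares were 5.77% and 4.35%, and GAGAGA was held by 13.3% of the unselected ones. Windows were counted once however often a motif occurred, and none of these shares was tested.

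The selected share of divergent candidates is given by chromosome, as a description. Chromosome III held 13 of the 43 from 258 candidates (5.04%, 95% interval 2.71 to 8.46%), and chromosome IV held 11 from 267 (4.12%, 2.07 to 7.25%). Chromosome I held 8 of 298 (2.68%) and chromosome II 7 (2.31%). Chromosome V had the most candidates, 454, and 4 selected peaks (0.881%, 0.241 to 2.24%), at F25H9.6, C55A6.1, fib-1 and his-6. Chromosome X held 88 candidates and 0 selected peaks, with an exact upper limit of 4.11%, or 3.41% by the limit of 3 counts that a count of 0 allows. At promoters on one strand the share ran from 0.503% on chromosome IV to 0.836% on chromosome I, with 0.773% on X (19 of 2458). On chromosome V it was 0.737% (27 of 3665, 0.486 to 1.07%), close to the 0.881% of divergent candidates there. On X the divergent share was 0, but its upper limit of 4.11% lies above the 0.773% of one-strand candidates. With 88 candidates no order of the 2 classes on X could be told. On the autosomes alone the odds ratio of divergent against one-strand promoters was 4.09 (2.75 to 5.99). Differences between chromosomes were not tested.

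**Figure D5:**
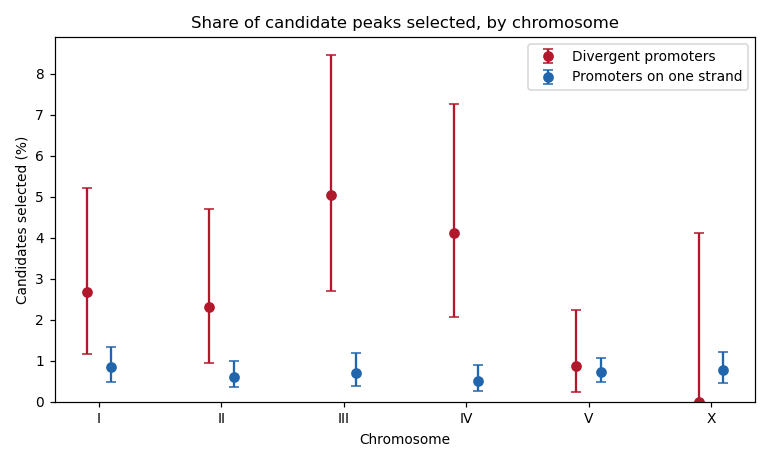
Share of distinct candidates that were selected (%, y axis) on each chromosome (x axis), at divergent promoters and at promoters on one strand. Bars are exact 95% Clopper-Pearson intervals. Divergent promoters range from 5.04% on III to 0 of 88 on X, while promoters on one strand stay between 0.503% and 0.836%.

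Members just inside and outside the authors' IDR threshold are given as a description. On the -log10 scale the threshold of 0.01 is 2, and the values are those of the second pooled ranked list described under processing. The lowest selected values were 2.07 at C08F8.9 with cpt-2 (signal 77.9) and 2.09 at rsr-1 with sri-5 (78.1). The highest unselected values were 1.98 at the saposin-like genes spp-2 and spp-6 on X (signal 7.67) and 1.89 at the histone genes his-60 and his-59 (80.2). The 5 unselected candidates of highest signal lay at Y20C6A.1 with fbxb-7 (93.8), at rsp-2 with rsp-1, both SR splicing factor genes (88.1), at C01G10.10 with C01G10.9 (84.6), at F01D4.5 with the engulfment gene ced-5 (81.9) and at his-60 with his-59. Replicate 1 and replicate 2 had 52.2 and 44.8 at the first of these and 37.7 and 48.1 at the second, within the range of the selected peaks in each replicate.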

How the data were processed

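ChIP-seq was measured in 2 biological replicates of 1 group. The deposited peak lists, on ce11 per the labels, hold a signal and a -log10 q value per peak, and the deposited ranked lists also hold a score, the -log10 IDR. No label or header used here names the aligner or peak caller.

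IDR values were read from a second pooled ranked list of the series, not from the list that gave the candidates. Candidates past the threshold of 0.01 in that second list but absent from the optimal list were left out. The 7 divergent candidates found only in the conservative list were not past it there and stayed among the unselected. Summits within 200 bp of a kept summit were merged, selected peaks first and then by signal. Gene starts came from Ensembl release 115 of WBcel235 and sequence from RefSeq, and every peak fitted the reference lengths. A replicate value is the strongest candidate of that replicate that overlaps the peak by at least 1 bp.

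Two-sided Fisher's exact tests compared the shares of distinct candidates, with Benjamini-Hochberg adjustment over the 2 main tests, or the same 2 within an alternative. Tests of single replicates and of strata were not adjusted. Odds ratios are conditional maximum likelihood estimates. The members, lists and motifs were chosen with earlier results of these data known. The named genes are those of the 20 strongest selected peaks, listed genes, the 5 strongest unselected candidates and those nearest the threshold. Other pairs were named to account for every member. Alternatives changed the list, window, geometry, merging and replicates. Scripts ran on Python 3.11.15 with pandas 2.3.3, matplotlib 3.10.9, scipy 1.17.1 and numpy 2.4.6.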

Additional observations from a re-analysis of the deposited data

Results flagged for a closer look

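The main comparisons used the optimal list, and the authors' conservative list entered only as an alternative. The conservative list held 36 of the 43 selected divergent peaks and 7 divergent candidates that the optimal list lacks, a signal outside the main measurement. No number was expected of such candidates, so the 7 are a description, and 2 of them are summits of 1 pair. These lay at Y20C6A.1 with fbxb-7 (signal 93.8), rsp-2 with rsp-1 (88.1), F01D4.5 with ced-5 (81.9 and a second summit at 6.09), gmps-1 with cap-2 (76.7), R04E5.9 with cnnm-2 on X (75.4) and T05A12.3 with T05A12.4 (75.03). None of the 7 overlapped a thresholded peak of either replicate.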

How the results depend on the processing

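The higher selected share of divergent than of one-strand promoters kept its direction and passed Fisher's exact test under every alternative run, with odds ratios from 3.08 (window from 1500 bp upstream) to 4.98 (from 500 bp upstream to 100 bp downstream), and 4.02 to 4.56 without one replicate. The strata by start distance, GC content, repeats and autosomes were chosen after seeing the data. The overlap with both replicates passed only for summits between head-to-head starts (odds ratio 2.70, 95% interval 0.982 to 7.31). There the adjusted p by Fisher's exact test was 0.0426, although the interval includes 1, so the pass is borderline. Over its alternatives the adjusted p by Fisher's exact test ran from 0.0426 to 0.582. No adjustment was made for the number of alternatives. The number of selected peaks was 27 in the narrower window and 23 when optimal peaks below that list's median signal were left out. Both are smaller sets by construction. It was 13 to 18 without one replicate, counted in the other replicate's own lists, which are not parts of the optimal list. The GC difference was 12.1 points within 50 bp and 6.34 to 7.65 without one replicate; the cause was not tested. No paired analysis was possible because there is 1 group. Read depth is unknown, and 43 peaks limit every share given for a gene list or chromosome.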

Other observations

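Of the 42 selected pairs, 3 held genes of the DREAM complex, a repressor of cell cycle genes that contains the retinoblastoma-like protein LIN-35. This was noticed after the members had been seen, and it was not tested. Of 8 subunit genes listed afterwards, 4 had a divergent candidate, and 3 of their 5 candidates were selected, against 2.58% of all divergent candidates. Selected peaks lay at lin-54 (signal 115.5), lin-53 (104) and lin-35 (84.4), while the candidate at lin-9 (21.7) and a second one at lin-54 were unselected. The summit at lin-54 lay nearer to the ribosomal protein gene rpl-12.

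Some words recurred in the printed sequences, and all 32896 8-mers, both strands pooled, were then ranked by the difference in share between selected and unselected divergent candidates. The word at the top, CGCTCCAC, was held by 7 of 43 selected windows (16.3%, 95% interval 6.81 to 30.7%), 1.23% of unselected divergent windows and 1 of 104 selected windows on one strand. Among unselected windows on one strand, 74 of 14859 held it (0.498%). The 7 selected divergent windows lay at tasp-1, rpl-15, rpl-20, dnj-13, rpl-12, rps-1 and fib-1. CATACACTC, seen by eye like the next word, was held by 4 of 43, at tasp-1, rpl-15, rpl-20 and rps-1, by 0 of 1625 unselected divergent windows (exact upper limit 0.227%, or 0.185% by the limit of 3 counts) and by 0 of 104 selected windows on one strand (3.48%, or 2.88% by the limit of 3 counts). Among unselected windows on one strand, 12 of 14859 held CATACACTC (0.0808%). ACGCAGA was held by 7 of 43 (16.3%) and, among windows not used to choose it, by 15 of 104 selected ones on one strand (14.4%, 8.30 to 22.7%), against 3.22% of unselected ones there. The top of such a ranking is high by choice, and none of these shares was tested.

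A heat shock element, counted as 3 alternating GAA and TTC triplets spaced by 2 bases, was held by 4 of 43 selected divergent windows (9.30%, 2.59 to 22.1%), at F44E5.4 with F44E5.5, cls-2, hsp-60 and F25H9.6. It was held by 1.17% of unselected divergent windows, and by 1.92% of selected and 1.33% of unselected windows on one strand. This was counted after the sequences had been seen.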
